A study of Mus musculus with 29 samples.

Results

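Hedgehog signalling was followed here through 9 genes: the ligand Shh, its receptor Ptch1, the co-receptor Gas1, the ligand-binding inhibitor Hhip, the transducer Smo, the Gli inhibitor Sufu and the transcription factors Gli1, Gli2 and Gli3. The members are every probe set annotated to 1 of these genes alone. This gave 24 probe sets for the 9 genes, among 18193 genes named by the array. The members were chosen by signals of these same arrays, with their group differences in view, and Hhip led the choice, so the differences of Hhip are given as a description with no test. The sources do not record which comparison pointed to Hhip. The other members were tested on the same arrays that were in view at the choice, so their p-values and calls are descriptions as well.

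The study compared lung tumours of mice that carried doxycycline-responsive transgenes, all in a 129/Bl6 mixed background. The TI-K primary tumours (8 arrays) came from mice with CCSP-rtTA and TRE-KrasV12. The TI-KM primary tumours (14 arrays) and the TI-KM recurrences (6 arrays) carried TRE-Mad2 as well. Normal lung (1 array) carried CCSP-rtTA alone, so every group shares that transactivator and no group lacks it. CCSP is the promoter of a club cell secretory protein and places the transactivator in lung epithelium. TRE is the promoter that the transactivator switches on in the presence of doxycycline. Mad2 is a spindle checkpoint protein, and the series title concerns relapse after the oncogene is withdrawn. The labels give no age, sex, doxycycline schedule or time of sampling, and nothing in them ties tumours to separate animals. P-values therefore measure the spread between these samples, part of which may be technical. Title number 76 occurs for both TI-KM primary 1 and TI-KM primary 2, so these tumours may share an animal.

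Hedgehog ligands are secreted proteins. In the absence of ligand Ptch1 holds Smo inactive, and Sufu and other regulators keep the Gli proteins from activating transcription. Binding of the ligand to Ptch1, helped by co-receptors such as Gas1, frees Smo, and Gli2 and Gli3 then switch on target genes. Gli1, Ptch1 and Hhip are themselves targets, and Ptch1 and Hhip feed back by capturing ligand. In the developing lung the epithelium makes Shh and the surrounding mesenchyme responds to it. RNA here came from whole tissue, in which fewer cells of a type and less RNA per cell cannot be told apart.

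The promoters of the feedback genes Hhip and Ptch1 are shown because Gli proteins are known to act on these genes. Each line gives the 250 bases before the start of the gene from RefSeq (mouse GRCm38.p6), written 5′ to 3′ on the gene's own strand. Hhip is on the minus strand at chr8:80058009-80058258 and Ptch1 on the minus strand at chr13:63565736-63565985. Capitals mark the Gli core motif CCACCC, which lies inside the full Gli site GACCACCCA.
Hhip: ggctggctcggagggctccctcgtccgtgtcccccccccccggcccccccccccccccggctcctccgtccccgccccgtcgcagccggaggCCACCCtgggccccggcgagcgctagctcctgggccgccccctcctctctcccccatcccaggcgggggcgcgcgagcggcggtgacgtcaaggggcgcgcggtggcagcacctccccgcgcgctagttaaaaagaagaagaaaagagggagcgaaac
Ptch1: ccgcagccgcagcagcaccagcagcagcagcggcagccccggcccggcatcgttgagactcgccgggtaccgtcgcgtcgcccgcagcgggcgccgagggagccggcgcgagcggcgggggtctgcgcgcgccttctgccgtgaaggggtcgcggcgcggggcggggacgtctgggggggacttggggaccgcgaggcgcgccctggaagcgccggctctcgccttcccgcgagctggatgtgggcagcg
The Hhip window held 1 core and the Ptch1 window held 0. On both strands, the core was found in 4 of the 7 members whose promoter the table holds (Gli2, Gli3, Hhip and Smo) and in 28.1% of 32851 promoter windows of the same length. The full site was found in 0 of the 7 and in 0.225% of all windows. A match describes letters in this window only.

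The arrays form 3 sets, defined here from the data and the title numbers and not from a batch label. In the first set, of 10 arrays, the 18S ribosomal control signal was above 12000. It held TI-KM primaries 1 to 6 and recurrences 1 to 4, and is called the high-18S set. The second set held TI-K primaries 1 to 5, whose title numbers lie above 2000. The remaining 13 arrays held TI-K primaries 6 to 8, TI-KM primaries 7 to 14 and recurrences 5 and 6. Normal lung was kept apart from all of them, though its 18S signal of 12569 also lay above 12000. Comparisons of normal lung with arrays outside the high-18S set therefore cross this cut as well. Low signals moved with the sets: the 40th percentile of an array was 80.2 to 115 in the high-18S set, 57.7 to 62.9 in the second set and 41.9 to 63.5 in the remaining arrays. Signals of alveolar type II markers such as Sftpa1 and Sftpd were present in every array, with summed signals of 80044 to 195219 over the tumours and 60259 in normal lung. Differences below are on the log2(signal + 20) scale with the SE of a limma model of all 29 arrays, and "called" means a Benjamini-Hochberg adjusted p below 0.05 over 14602 genes. Of the 24 probe sets, 15 passed the filter on low signals, at least 1 for each member, and the probe set with the highest mean represents its gene.

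Hhip signal was lower in TI-KM primaries than in recurrences, and highest in normal lung. On its strongest probe set, 1455277_at, normal lung gave 462. The TI-K primaries gave 84.9, 262, 107, 361, 151, 31.1, 30.1 and 50.9. The TI-KM primaries ranged from 19.7 to 151 with a median of 60.9. The recurrences gave 259, 231, 95.2, 167, 293 and 139. All 28 tumours lay below normal lung, 4 of the 6 recurrences lay above every TI-KM primary, and 11 of the 14 TI-KM primaries lay below every recurrence. The probe set exceeded the 40th percentile of its array in 6 of 6 recurrences, 6 of 8 TI-K primaries and 5 of 14 TI-KM primaries, so most TI-KM values were in the range of dim probe sets.

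As a difference, Hhip was 1.44 ± 0.37 (SE) higher in recurrences than in TI-KM primaries, a ratio of 2.71. The value was 1.52 ± 0.40 within the high-18S set, 1.45 ± 0.45 among the remaining arrays and 1.49 ± 0.32 with the set as a block. In the high-18S set the lowest recurrence (95.2) lay below the highest TI-KM primary (107), and in the remaining arrays the lowest recurrence (139) lay below the highest TI-KM primary (151), so the groups overlapped slightly in both. Against normal lung, the mean of the 3 tumour groups differed by -1.97 ± 0.78, with differences of -2.001 for TI-K primaries, -2.67 for TI-KM primaries and -1.23 for recurrences.

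Comparisons of Hhip with TI-K primaries moved with the sets. TI-K primaries 1 to 5 had Hhip signals of 84.9 to 361, and TI-K primaries 6 to 8 had 30.1 to 50.9, with no overlap. The difference of TI-KM from TI-K primaries was -0.67 ± 0.34 over all arrays but 0.52 ± 0.39 among the remaining arrays and 0.52 ± 0.42 with the block. Recurrences exceeded TI-K primaries by 0.77 ± 0.41 over all arrays, by 1.98 ± 0.52 among the remaining arrays and by 2.01 ± 0.49 with the block. Fibroblast markers moved with the same split: the summed signal of 12 markers, led by Fn1 and Col3a1, was 26679 to 43415 in TI-K primaries 1 to 5 and 16335 to 18539 in TI-K primaries 6 to 8. It was 9615 to 27141 in TI-KM primaries, 30935, 28729, 10262, 31661, 18587 and 9642 in recurrences 1 to 6, and 33946 in normal lung. Such a sum follows its brightest genes, and the markers did not all move alike. Fn1 was 2848 in normal lung, against 5096 to 16987 in TI-K primaries, 3291 to 8549 in TI-KM primaries and 2543 to 12390 in recurrences. Col3a1 in normal lung (6962) lay within the range of each tumour group. Recurrences 3 and 6, with the lowest fibroblast sums of their group, had the lowest Hhip signals of the group, while recurrence 5 had the highest Hhip signal at a sum of 18587. The part of fibroblast content in the Hhip values was not tested.

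**Figure D1:**
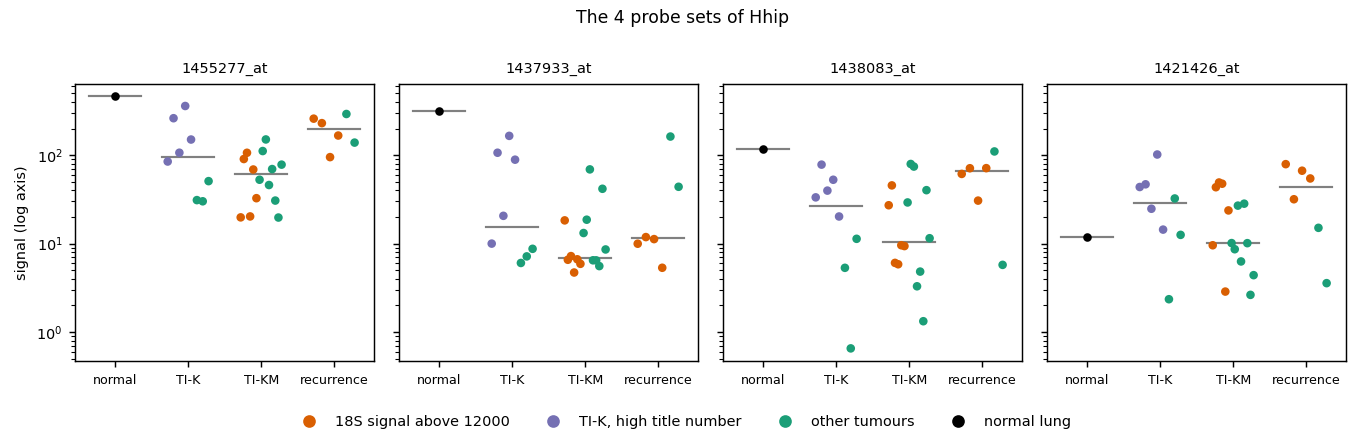
Signal (log axis) of the 4 probe sets of Hhip in each array, by group. Points are arrays coloured by array set and grey lines are group medians. On 1455277_at the 6 recurrences sit between 95.2 and 293 and the normal lung at 462, while the other probe sets are dimmer in tumours and 1421426_at does not set normal lung apart.

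The other Hhip probe sets were dimmer and agreed only in part. Probe set 1437933_at gave 317 in normal lung and 4.71 to 166 in tumours, with all 28 tumours below normal lung. Among tumours it was brightest in TI-K primary 4 (166) and recurrence 5 (163), and in the 10 high-18S arrays it stayed at 4.71 to 18.3. Probe set 1438083_at gave 117 in normal lung and 0.65 to 110 in tumours, again with all 28 below. Probe set 1421426_at went the other way: normal lung gave 11.8, and 18 of 28 tumours lay above it. Recurrences differed from TI-KM primaries by 0.59 ± 0.32 on 1421426_at, 0.47 ± 0.40 on 1437933_at and 0.84 ± 0.36 on 1438083_at, all in the direction of 1455277_at. Only 1 of these 3 probe sets, 1437933_at, passed the filter on low signals.

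Shh, the ligand, gave strong signals in every array. On 1436869_at normal lung gave 1110. TI-K primaries ranged from 1756 to 5058 (median 3577), TI-KM primaries from 1403 to 4619 (median 2947), and the recurrences gave 897, 5329, 1950, 2308, 5548 and 2487. Of the 28 tumours, 27 lay above normal lung, and the recurrences held both the lowest and the 2 highest tumour values. The tumour groups exceeded normal lung by 1.35 ± 0.61, which did not pass the test (limma adjusted p = 0.153), and the difference was 1.52 for TI-K primaries, 1.33 for TI-KM primaries and 1.21 for recurrences. Differences between tumour groups were -0.18 ± 0.27 (TI-KM minus TI-K primaries), -0.13 ± 0.29 (recurrences minus TI-KM primaries) and -0.31 ± 0.32 (recurrences minus TI-K primaries), with adjusted p from 0.509 to 0.878 in limma. The other Shh probe set, 1427571_at, was dim at 5.15 to 66.1 in tumours and 65.2 in normal lung.

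Ptch1, the receptor and a target of the pathway, was not called in any comparison of groups. On 1428853_at normal lung gave 2400, TI-K primaries 1500 to 2830 (median 2179), TI-KM primaries 712 to 2484 (median 1642) and the recurrences 1555, 2020, 1613, 2521, 2556 and 1985. The groups overlapped, and the lowest values belonged to TI-KM primaries of the high-18S set (712 to 1836, against 1388 to 2484 in the other TI-KM primaries). TI-KM minus TI-K primaries was -0.41 ± 0.18 (limma adjusted p = 0.135), and recurrences minus TI-KM primaries was 0.34 ± 0.20 (0.497 by the same adjustment). The first of these was 0.13 with the set as a block and 0.18 among the remaining arrays. Within the high-18S set the mean log2 value was 10.90 in recurrences and 10.26 in TI-KM primaries. Recurrences minus TI-K primaries was -0.07 ± 0.22 over all arrays and 0.60 with the block. Probe sets 1439663_at and 1450824_at did not pass the filter. On them recurrences minus TI-KM primaries was -0.04 ± 0.26 and 0.55 ± 0.19 (limma adjusted p = 0.966 and 0.221 over all probe sets).

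Gas1, a membrane co-receptor that binds Shh, showed the widest gap between normal lung and tumours of the members that were tested. On 1416855_at normal lung gave 4336. TI-K primaries ranged from 178 to 476 and TI-KM primaries from 73.5 to 489. The recurrences gave 1140, 144, 82.3, 1028, 385 and 414. Recurrences 1 and 4 lay above every primary tumour and recurrence 3 lay among the lowest values, so the recurrences spread wider than the primaries. Against normal lung Gas1 in the 3 tumour groups fell by 3.85 ± 0.80 (limma adjusted p = 9.56e-04), and all 28 tumours lay below normal lung. With normal lung added, the Gas1 difference was -3.68 in the high-18S set and -3.90 in the remaining arrays. These fits and the leave-one-out fits kept the same single normal lung. They could therefore not test how far the difference depends on that array. Probe set 1448494_at also had all 28 tumours below normal lung, with 949 in normal lung, 40.1 to 171 in primaries and a median of 74.7 in recurrences, while 1456322_at was dim in all arrays (5.18 to 102).

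Markers of several other cell types were also higher in normal lung than in tumours. Smooth muscle and pericyte markers (9 measured of 10 listed, led by Acta2 and Rgs5) summed to 33919 in normal lung and to 3332 to 22983 in tumours. Adipocyte markers (2 of 7 measured, Fabp4 and Cidea) summed to 44304 in normal lung and 1246 to 9987 in tumours. Endothelial markers (10 of 10, led by Esam and Vwf) summed to 23295 in normal lung and 5758 to 16051 in tumours. The 2 leading genes did not show this gap. Esam was 2630 in normal lung and 1197 to 5465 in tumours, and Vwf was 4207 and 943 to 5403. Most of the dimmer endothelial markers were above all tumours in normal lung. Median differences of tumours from normal lung were -1.66 for endothelial, -1.305 for smooth muscle and pericyte, -5.64 for adipocyte and -1.05 for mesothelial markers. They were -1.675 for fibroblast and -1.64 for neuroendocrine markers (3 of 7 measured), and 0.08 over all genes. Epithelial and other lists were lower in tumours as well: club -1.82, ciliated -0.91, alveolar type I -0.52, muscle -1.54 and T lymphocyte -0.78. Among the marker lists, only macrophage (1.08) and alveolar type II markers (2.125) had a median above that of all genes. Macrophage markers summed to 24192 in normal lung and 27190 to 81506 in tumours. Mesothelial markers (5 of 5, led by Msln and Upk3b) summed to 3123 in normal lung, 343 to 1672 in primaries, and 3684, 1941, 464, 5557, 678 and 1703 in recurrences 1 to 6. Recurrences 1 and 4 had the highest mesothelial sums and the highest Gas1 signals, and their fibroblast sums were 30935 and 31661. Recurrence 2 had a fibroblast sum of 28729 with Gas1 at 144, and TI-K primaries 3 and 5 had sums of 38850 and 43415 with Gas1 at 431 and 269. The part of these cell types in the Gas1 values was not tested, and with 1 normal array a difference between normal lung and tumours cannot be told apart from variation between normal lungs.

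Smo, the membrane protein that carries the signal onward once Ptch1 is bound, was highest among tumours in recurrence 5 and TI-K primary 5. On 1427049_s_at normal lung gave 1114. The TI-K primaries gave 448, 723, 955, 641, 1198, 329, 288 and 249. The TI-KM primaries ranged from 177 to 476 (median 306). The recurrences gave 457, 339, 244, 518, 1288 and 821. Of the recurrences, 3 lay above every TI-KM primary, and of the TI-K primaries, 4 did. Recurrences exceeded TI-KM primaries by 0.82 ± 0.30, which was not called (limma adjusted p = 0.251). This difference was 0.27 ± 0.30 within the high-18S set (adjusted p = 0.803 in limma) and 1.82 ± 0.28 among the remaining arrays (adjusted p = 0.0271), where it rests on 2 recurrences against 8 TI-KM primaries and where limma called 0.0822% of all genes. Recurrences 5 and 6 had low fibroblast sums (18587 and 9642), below those of all TI-K primaries 1 to 5, and the part of fibroblast content in the Smo values was not tested. TI-KM minus TI-K primaries was -0.81 ± 0.27 (adjusted p = 0.0563), and 0.14 ± 0.34 with the block. Against normal lung the difference was -1.32 ± 0.63 (limma adjusted p = 0.176), with 26 of 28 tumours below. It was called in limma with the remaining arrays alone (-1.31 ± 0.37, adjusted p = 0.0178) and with the high-18S arrays alone (-1.65 ± 0.49, adjusted p = 0.0394). Probe set 1427048_at gave 1.02 ± 0.46 for recurrences minus TI-KM primaries, -1.23 ± 0.42 for TI-KM minus TI-K primaries and -1.40 ± 0.96 against normal lung, and 1442215_at was dim throughout (1.31 to 13.7).

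Sufu, which holds Gli proteins in check, had differences no larger than 0.34 on its strongest probe set. This was the narrowest range over the 4 comparisons among the probe sets that represent the 9 members. Its signal on 1450024_at was 524 in normal lung, 392 to 612 in TI-K primaries, 398 to 899 in TI-KM primaries and 582 to 740 in recurrences. Differences on it stayed between 0.09 ± 0.13 (TI-KM minus TI-K primaries) and 0.34 ± 0.16 (recurrences minus TI-K primaries), with limma adjusted p from 0.121 to 0.875 over the 4 comparisons. Probe sets 1431713_at and 1420848_at also passed the filter, were dimmer and differed more. On them recurrences exceeded TI-K primaries by 1.01 ± 0.44 and 0.66 ± 0.30 (limma adjusted p = 0.0976 and 0.116 over all probe sets). TI-KM exceeded TI-K primaries by 0.73 ± 0.36 and 0.06 ± 0.25.

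**Figure D2:**
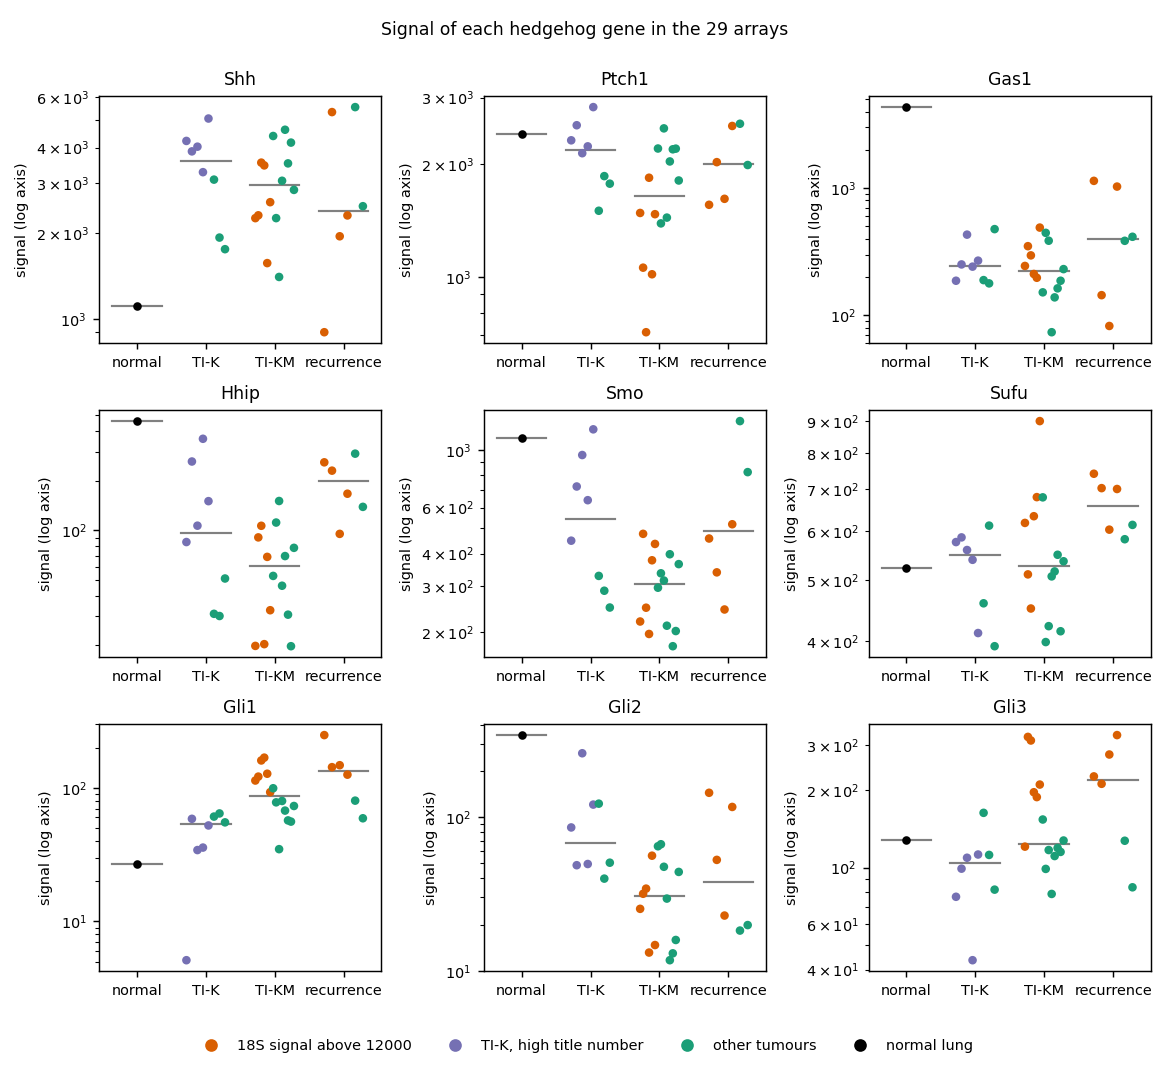
Signal (log axis) of each member's representative probe set in the 29 arrays, by group. Points are arrays coloured by array set and grey lines are group medians. Gas1 at 4336 and Gli2 at 342 in normal lung lie above all tumours, and Gli1 separates by array set within TI-KM primaries.

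Gli1, the activator whose own transcription responds to the pathway, was dim, and was called higher in TI-KM than in TI-K primaries in the model of all arrays. On 1449058_at normal lung gave 26.7. The TI-K primaries gave 5.12, 58.6, 34.2, 35.7, 52.3, 60.9, 64.3 and 55.1. TI-KM primaries of the high-18S set gave 92.8 to 168 (median 124) and the other TI-KM primaries 34.7 to 99.3 (median 70.3). The recurrences gave 248, 143, 148, 125, 80.2 and 59.2. Within TI-KM primaries and within recurrences the high-18S arrays held the higher values, with no overlap among recurrences. Of the 28 tumours, 27 lay above normal lung, at a difference of 1.08 ± 0.57 that did not pass the test (limma adjusted p = 0.235), and with the high-18S arrays alone it was 1.81 ± 0.40 (adjusted p = 0.0116). Gli1 lay below the 40th percentile of the array in normal lung (68.3) and in 5 of 8 TI-K primaries, and above it in 13 of 14 TI-KM primaries and 6 of 6 recurrences. The size of a difference from normal lung or TI-K primaries is therefore uncertain.

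Over all arrays TI-KM exceeded TI-K primaries in Gli1 by 0.81 ± 0.25 (limma adjusted p = 0.0419), with 11 of 14 TI-KM primaries above every TI-K primary. Recurrences exceeded TI-K primaries by 1.201 ± 0.30 (limma adjusted p = 0.00857). Both calls were lost once the set entered the model: the differences became 0.08 ± 0.27 (adjusted p = 0.995) and 0.27 ± 0.31 (adjusted p = 0.793), and among the remaining arrays they were 0.11 ± 0.24 and 0.15 ± 0.32. The first call was also lost without any of TI-K primaries 1 to 5 or TI-KM primaries 1 to 7, with values of 0.62 to 0.86 and adjusted p of 0.0516 to 0.117; 16 of 28 leave-one-out fits kept it. All 28 such fits kept the call against TI-K primaries in recurrences.

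Gli2, the main activator that responds to Smo, was lower in TI-KM than in TI-K primaries and lower in tumours than in normal lung. On 1459211_at normal lung gave 342. The TI-K primaries gave 85.7, 48.7, 260, 49.5, 121, 122, 39.8 and 50.5. The TI-KM primaries ranged from 11.7 to 66.6 (median 30.6), and the recurrences gave 144, 52.7, 22.9, 117, 18.3 and 19.8. All tumours lay below normal lung, and 9 of 14 TI-KM primaries lay below every TI-K primary, but only 3 TI-KM primaries exceeded the 40th percentile of their array. TI-KM fell by 1.02 ± 0.30 against TI-K primaries (limma adjusted p = 0.0379). Blocking on the set gave -0.85 ± 0.45 (adjusted p = 0.988), and the remaining arrays alone gave -0.68 ± 0.37 (adjusted p = 0.782). Its direction stayed and its call did not. The call was also lost without TI-K primaries 1 to 6 or TI-KM primaries 1, 2, 4 or 6 in turn, with values from -1.11 to -0.82; 18 of 28 such fits kept it. Against normal lung the 3 tumour groups fell by 2.36 ± 0.70. All 28 leave-one-out fits and the fits by array set kept the same single normal lung. They could therefore not test how far the difference depends on that array. Recurrences 1 and 4, highest in Gli2, were also highest in Gas1. The dim probe set 1446086_s_at differed by -0.30 ± 0.30 between TI-KM and TI-K primaries and did not pass the test (adjusted p = 0.529 over all probe sets).

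Gli3, which acts mostly as a repressor in the absence of ligand, followed the sets as Gli1 did. On 1456067_at normal lung gave 128 and TI-K primaries 43.5 to 163. TI-KM primaries gave 121 to 323 in the high-18S set and 78.9 to 154 elsewhere, and the recurrences gave 227, 212, 276, 329, 127 and 83.7. Recurrences exceeded TI-K primaries by 0.88 ± 0.29 (limma adjusted p = 0.0339), and TI-KM exceeded TI-K primaries by 0.56 ± 0.24, which was not called (adjusted p = 0.120). With the set as a block these became 0.04 ± 0.29 and -0.06 ± 0.25, with adjusted p of 0.974 and 0.995. The call was lost without TI-K primary 1 or 4 or recurrence 1, 2, 3 or 4 (0.74 to 0.85). Probe set 1455154_at gave 0.21 ± 0.30 for recurrences minus TI-K primaries, with 27 of 28 tumours below normal lung at 203.

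**Figure D3:**
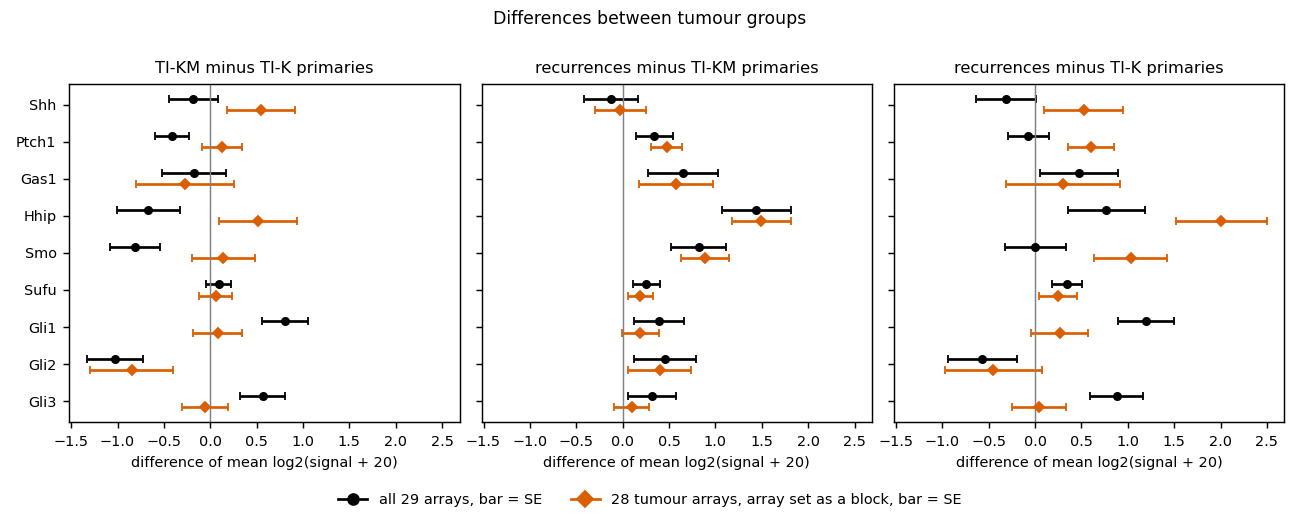
Differences of mean log2(signal + 20) between tumour groups for the 9 members. Black circles come from the model of all 29 arrays and orange diamonds from the 28 tumour arrays with array set as a block, each with its SE. Hhip in recurrences minus TI-KM primaries is 1.44 and 1.49 in the models, while Gli1 in TI-KM minus TI-K primaries is 0.81 and 0.08.

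Counted without Hhip, 8 members were tested. Between TI-KM and TI-K primaries, 1 was called higher (Gli1) and 1 lower (Gli2), where 8.01% of all genes were called (5.5% higher and 2.51% lower). Between recurrences and TI-KM primaries, limma called 0 of the 8, against 0.26% of all genes (0.0411% higher and 0.219% lower), and 1 of the 8 (Smo) had an unadjusted p below 0.05, against 12.4% of all genes. Recurrences against TI-K primaries gave 2 called higher (Gli1 and Gli3), where 18.9% of all genes were called (12.2% higher and 6.73% lower). The tumour groups against normal lung gave 2 called lower (Gas1 and Gli2), where 13.7% of all genes were called (7% higher and 6.69% lower). These shares are the background for the members' counts, and since the members were chosen with results known nothing is read from the counts. With the set as a block limma called no gene between TI-KM and TI-K primaries, 0 of 14602, at which 4.84% of genes had an unadjusted p below 0.05. With the block it called 0 of the 8 members in the other tumour comparisons as well, where 0.705% of all genes (recurrences minus TI-KM primaries) and 0.0959% (recurrences minus TI-K primaries) were called, and 2 of the 8 members in each had an unadjusted p below 0.05, against 15% and 11.1% of all genes. Among the remaining arrays 0.13% of genes were called in recurrences minus TI-K primaries, and within the high-18S set 0.00685% in recurrences minus TI-KM primaries. Against normal lung 26.2% of genes were called with the remaining arrays and 15% with the high-18S set. The comparisons share arrays: TI-KM primaries enter both the first and second of them, TI-K primaries both comparisons against them.

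The wider pathway was read from 43 listed genes, of which 40 were annotated and 37 tested. Scube3, Gpr161 and Foxl1 did not pass the filter on low signals. Between TI-KM and TI-K primaries limma called 0 of 37, with 5 at an unadjusted p below 0.05 where 27.9% of all genes were, and the median difference was -0.02 against 0.08 over all genes. Between recurrences and TI-KM primaries it called 0 of 37, with 7 at an unadjusted p below 0.05 where 12.4% of all genes were, and the median was 0.19 against 0.04. Between recurrences and TI-K primaries 11 of 37 had an unadjusted limma p below 0.05, where 35.5% of all genes did. The median was 0.22 against 0.11. Recurrences were called higher in 2 of 37 and lower in 0, where 12.2% of all genes were called higher and 6.73% lower. The 2 were Foxf1, a mesenchymal transcription factor and hedgehog target (0.96 ± 0.29, limma adjusted p = 0.0208), and Bcl2, an inhibitor of cell death (0.80 ± 0.26, adjusted p = 0.0327). With the block they were 0.50 ± 0.38 and 0.70 ± 0.33 and neither was called.

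Against normal lung, 4 of the 37 were called higher in tumours and 4 lower, where 7% of all genes were called higher and 6.69% lower. The median was -0.32 against 0.08 over all genes. Lrp2, a large endocytic receptor that binds Shh, rose by 3.48 ± 0.76 (limma adjusted p = 0.00168), from 121 in normal lung to 244 to 3239 in tumours. Cdon, a co-receptor like Gas1, fell by 1.90 ± 0.52 (adjusted p = 0.0120), from 1279 to 175 to 700. Wnt2, a mesenchymal Wnt ligand, fell by 3.02 ± 0.74 (adjusted p = 0.00507). The remaining calls were Hhat, Bmp4 and Ccnd1 higher and Scube2 and Foxf1 lower, named here to complete the count. With the high-18S arrays and normal lung alone none of the 4 higher genes was called in limma (Lrp2 2.87 ± 1.01, adjusted p = 0.0753; Hhat 0.0707, Ccnd1 0.0887 and Bmp4 0.202 by the same adjustment), nor was Foxf1 (0.0814). Cdon, Wnt2 and Scube2 were called there as well.

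Over the 28 tumours, after the mean of each group within each array set was subtracted, 23 of the 36 pairs had a Pearson r above 0, and none passed a permutation test within groups and sets after Benjamini-Hochberg adjustment over the 36 pairs (smallest adjusted p 0.263 for Pearson's r and 0.226 for Spearman's rho). Gas1 and Gli2 had r = 0.53 and rho = 0.48 (permutation p = 0.0291 and 0.0364, adjusted 0.297 and 0.226), and r = 0.36 without the 2 arrays farthest from the median of Gas1. Hhip and Smo had r = 0.47 and rho = 0.45 (permutation p = 0.0334 and 0.0407, adjusted 0.297 and 0.226), and r = 0.54 without 2 such arrays; r was 0.52 in the high-18S set and 0.71 in the remaining arrays. Among the target genes, r was -0.32 between Hhip and Ptch1, -0.20 between Gli1 and Ptch1 and 0.26 between Gli1 and Hhip (adjusted permutation p from 0.529 to 0.6).

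**Figure D4:**
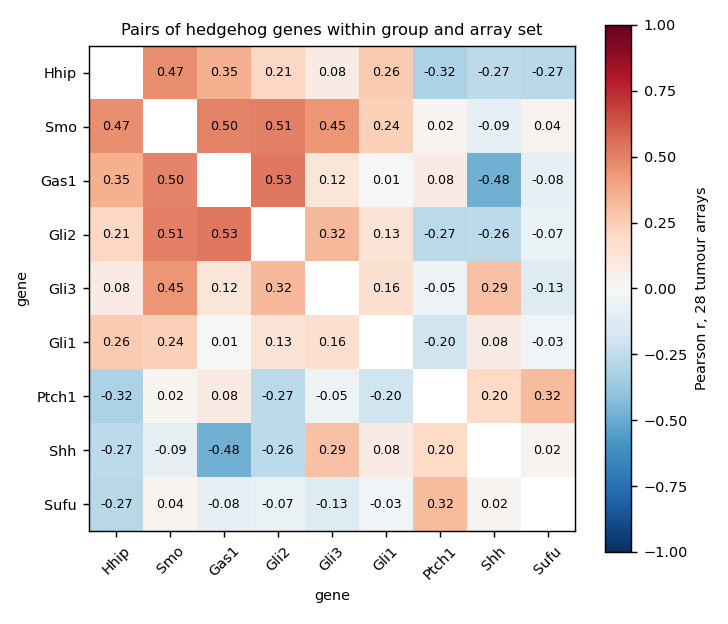
Pearson r for each pair of members over the 28 tumour arrays, after the mean of each group within each array set was subtracted. The colour scale runs from -1 to 1. Smo, Gas1 and Gli2 have r of 0.50 to 0.53 with each other, and Gas1 and Shh have the lowest r, -0.48.

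Likeness over the same 28 tumours was ranked for 14601 other genes as a description, and all values share the arrays and their quality. The 5 genes most like Hhip were Ptprd (r = 0.82, rho = 0.91), Tcf21 (r = 0.79, rho = 0.83), St8sia2 (r = 0.79), Itgae (r = 0.79) and Serpina10 (r = 0.79), and Tcf21, a mesenchymal transcription factor of lung, is also on the fibroblast marker list. Over all genes the median r with Hhip was 0.02. Ptch1 was most like Dag1 (r = 0.86), Atmin (r = 0.86) and Fzd7 (r = 0.84), and Gli1 most like Pde1c (r = 0.82), Orai2 (r = 0.76) and Kcnt1 (r = 0.76). None of these 11 genes is a member.

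RNA quality differed between groups. The log2 ratio of 3' to 5' probe sets of control transcripts was 2.16 ± 0.41 (SD, n = 8) in TI-K primaries, 2.16 ± 0.67 (SD, n = 14) in TI-KM primaries, 1.32 ± 0.45 (SD, n = 6) in recurrences and 2.59 in normal lung. With this ratio as a covariate, Hhip in recurrences minus TI-KM primaries was 1.42 ± 0.44.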

How the data were processed

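Each of 29 samples (28 tumours, 1 normal lung) was measured on its own Affymetrix array. The deposited values are intensities, 1 linear signal per probe set for 45101 probe sets, made with MAS5 per the submitters' processing notes (version, scaling and background settings not given in the sources used here). Each array had a 2% trimmed mean of 500.003, and no further scaling was applied. MAS5 signals of dim probe sets are imprecise, and the number of arrays limits the precision.

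Of the probe sets, 64 controls were left out, 34945 named 1 gene by the platform annotation, 932 several and 9160 none. The filter on low signals required a signal above an array's own 40th percentile in 6 or more arrays (31932 passed). Tests ran on log2(signal + 20), and the offset understates changes of dim genes. limma (version 3.58.1, in R 4.3.3), with a variance trend, fitted all 29 arrays by group, and a second fit took every probe set unfiltered. The spread of the single normal lung was assumed to equal that of the tumours. Array sets entered as a block or one at a time. Pairs of members were tested with 100000 permutations within group and set. The model was tested on simulated data.

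The members, gene lists and tests were chosen with earlier results of these arrays known. The genes named are the 9 members; of the other pathway genes, the called ligands and receptors and the 3 called genes of smallest p per comparison; the genes most like Hhip, Ptch1 and Gli1; and the 2 brightest genes of a marker list. Replicate numbers follow accession order.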

Additional observations from a re-analysis of the deposited data

Results flagged for a closer look

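The Gli1 signal of TI-K primary 1 was 5.12, far below the next lowest TI-K primary at 34.2. On the log2(signal + 20) scale the gap was 0.635 of the range of the 8 arrays, above the cut of 0.526. The gap was not examined on the linear signals. Among 18 sets of group values examined this way this was the only one set apart, and chance alone sets apart about 1 in 20. Without that array Gli1 exceeded TI-K in TI-KM primaries by 0.62 (limma adjusted p = 0.117), and the call was lost.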

How the results depend on the processing

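Over 13 alternatives, 384 of 432 differences of members were unchanged and 28 changed sign. A further 10 lost a call, 8 gained one and 2, both of Hhip, moved. Unchanged means the same sign and the same side of the threshold. For Hhip, which has no reported test, it means the same sign and a shift below the pooled SD within tumour groups. Each tumour array was also left out in turn. Cause was not tested for any change below. No paired analysis was possible because the replicate numbers give only accession order and the labels pair no samples. Members called (Hhip not counted) between TI-KM and TI-K primaries were 2 in the main model, 4 after quantile normalization, and 0 with the 2 tumours of title number 76 averaged, with the set as a block or among the remaining arrays; leaving out arrays gave 0 to 3. For recurrences minus TI-KM primaries the count went from 0 to 1 among the remaining arrays. For recurrences minus TI-K primaries it went from 2 to 1 with the median of probe sets and to 0 with the block or the remaining arrays (leave-one-out 1 to 2). Against normal lung it went from 2 to 4 with the high-18S arrays (Gli1 and Smo added) and to 3 with the remaining arrays (Smo added).

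Other pathway genes called between TI-KM and TI-K primaries went from 0 to 1 after quantile normalization (leave-one-out 0 to 1). For recurrences minus TI-K primaries they went from 2 to 5 after quantile normalization or with the median of probe sets, to 1 with the 3'/5' ratio as covariate and to 0 with the block or the remaining arrays. Leave-one-out fits gave 1 to 6: 1 without TI-K primary 1 or 8 or recurrence 1 or 4, 6 without recurrence 5 and 5 without recurrence 6. Against normal lung they went from 8 to 13 among the remaining arrays and to 5 with the high-18S arrays.

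Signs changed as follows. With the block, TI-KM minus TI-K primaries became -0.059 for Gli3, 0.52 for Hhip, 0.13 for Ptch1, 0.55 for Shh and 0.14 for Smo, and recurrences minus TI-K primaries 0.60 for Ptch1 and 0.52 for Shh. Among the remaining arrays TI-KM minus TI-K primaries became -0.017 for Gli3, 0.52 for Hhip, 0.18 for Ptch1 and 0.49 for Shh. There, recurrences minus TI-KM primaries became -0.43 for Gli2, -0.11 for Gli3 and 0.27 for Shh, recurrences minus TI-K primaries -0.13 for Gli3, 0.40 for Ptch1 and 0.76 for Shh, and tumours minus normal lung -0.18 for Gli3 and -0.0056 for Sufu. With the median of probe sets the values were 0.064 for Gas1 (TI-KM minus TI-K), -0.10 for Smo (recurrences minus TI-K), -0.47 for Gli3 and -0.44 for Sufu (tumours minus normal lung). With the 3'/5' ratio they were 0.030 for Shh (recurrences minus TI-KM), -0.10 for Smo (recurrences minus TI-K) and -0.038 for Sufu (tumours minus normal lung). Smo in recurrences minus TI-K primaries, at 0.0032, was -0.037 after quantile normalization and -0.20 without shared probe sets. Leaving out arrays moved it between -0.25 and 0.21, Shh in recurrences minus TI-KM primaries between -0.35 and 0.17, and Ptch1 in recurrences minus TI-K primaries between -0.14 and 0.0018. Hhip in recurrences minus TI-KM primaries stayed between 0.95 and 1.69 over the 13 alternatives and between 1.32 and 1.61 over the 28 leave-one-out fits. Signal over background limits Gli1, Gli2 and the dimmer probe sets of Hhip.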
